A study of Homo sapiens with 6 samples.

Results

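The genes that encode the translation initiation factors (eIF) and elongation factors (eEF) were examined in nascent RNA of A375 cells, an established human melanoma line. They were chosen by name. A protein-coding gene was a member where its symbol began with EIF or EEF and a digit, and the EIF2AK kinases and the EEF1AKMT methyltransferases were left out. The rule found 62 members among 19708 protein-coding genes and 58243 gene identifiers in all, and 58 of the 62 passed the filter on low counts and were tested. Of the members, 17 were set apart as 5′ TOP-type genes, which were EEF1A1, EEF1B2, EEF2 and the 14 EIF3 genes, and the other 45 (41 of them tested) formed the comparison group.

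The EV group held 3 libraries (B1, B2 and B3) of A375 cells stably transfected with an empty vector, and the PRL3 group held 3 libraries (B9, B10 and B11) of A375 cells stably transfected with a human PRL3 expression plasmid. PRL3 is a protein tyrosine phosphatase encoded by PTP4A3. Both lines were kept in hygromycin B at 100 µg/ml and were given 500 µM 4-thiouridine (4sU), a uridine analogue that marks new transcripts, for 20 min before the marked RNA was biotinylated, captured on streptavidin and depleted of ribosomal RNA. Whether the libraries came from separate cultures, or the PRL3 line from 1 clone, was not given in the sources used here, so p-values measure the spread between these libraries, which may be technical. A library held 47158709 to 57952035 reads assigned to genes in the EV group and 36532207 to 56511290 in the PRL3 group. PTP4A3 rose from 217 ± 59.4 normalised counts (mean ± SD, n = 3) to 24387 ± 3796, a log2 fold change of 6.80 (SE 0.25, edgeR adjusted p = 1.1e-08). Of 12 melanoma and melanocyte markers 8 were tested, with a summed level of 70438 to 90410 in the EV libraries and 40741 to 48504 in the PRL3 libraries, and SOX10, CSPG4, MCAM and PRAME were among the abundant ones. The pigment genes MLANA, TYR, TYRP1 and DCT never exceeded 20 counts in a library. Epithelial markers summed to 1095 to 1228 and 385 to 633, nearly all of it KRT14, while EPCAM, CDH1 and KRT5 reached at most 21 counts. The blood markers summed to 10.8 to 13.4 and 10.3 to 26.8, and the fibroblast markers to 151.9 to 234.6 and 64.9 to 104. Several properties of the libraries moved with the groups. First, 28.7% to 41.1% of uniquely aligned reads fell outside exons annotated on their strand in the EV libraries and 62.8% to 69.1% in the PRL3 libraries (two-sided exact permutation p = 0.1, the smallest that 3 libraries against 3 allow). Second, reads that could not be assigned to a single gene made up 4.67% ± 0.293 and 2.15% ± 0.438 of uniquely aligned reads. The EV libraries held counts on 27205 to 27930 genes and the PRL3 libraries on 31657 to 32082, and the TMM scaling factors were 0.816 to 0.894 and 1.12 to 1.25. The part of these in the results was not tested. The counts used here were taken over exons. For most of their own analysis the authors used intronic reads, to avoid possible confounding by splicing during transcription or some carry-over of mRNA. A fall in exon counts therefore need not mean less new transcription, and the part of carry-over or splicing was not tested.

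Initiation begins when eIF2 brings the initiator tRNA to the small ribosomal subunit, helped by eIF1, eIF1A and the large eIF3 complex, while eIF4E binds the mRNA cap and eIF4G and the helicase eIF4A open the leader. The exchange factor eIF2B reloads eIF2 with GTP, and eIF5B joins the large subunit. In elongation eEF1A delivers aminoacyl-tRNA, the eEF1B complex recharges it, and eEF2 moves the ribosome along the message. Messages of ribosomal proteins and of several of these factors begin with a C followed by a run of pyrimidines, the 5′ terminal oligopyrimidine (TOP) tract, through which mTORC1 controls their translation.

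The first bases of the transcript decide whether a gene carries such a tract, so the annotated starts of the members were read before their levels were compared. A start was counted as pyrimidine-rich where a C at the RefSeq start was followed by at least 4 bases that were each C or T, on the sense strand only. Of the 51 members with an entry in the promoter table, 12 met this (23.5%), against 712 of 15289 protein-coding genes (4.66%), 1104 of 27305 entries of any kind (4.04%) and 45 of 71 genes of cytosolic ribosomal proteins (63.4%). Of the TOP-type members by name, 6 of 11 met it (54.5%), and of the others 6 of 40 (15%). The members without an entry were EIF3A, EIF3CL, EIF3E, EIF3G, EIF3H, EIF3L, EEF1A2, EEF1D, EEF2KMT, EIF2S2 and EIF4EBP1. Each window below shows 15 bases before and 15 from the annotated start (GRCh38.p14, RefSeq), 5′ to 3′ on the sense strand, with the pyrimidine run that opens at the start in capitals. The first 6 are the TOP-type members that met the definition (chr6:73521018-73521047, minus strand; chr19:3985449-3985478, minus; chr19:38619173-38619202, plus; chr11:32583816-32583845, plus; chr22:36529152-36529181, minus; chr11:7987322-7987351, plus).
EEF1A1: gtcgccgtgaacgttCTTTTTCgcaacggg
EEF2: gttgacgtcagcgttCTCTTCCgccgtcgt
EIF3K: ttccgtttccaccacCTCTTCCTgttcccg
EIF3M: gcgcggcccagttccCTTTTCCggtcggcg
EIF3D: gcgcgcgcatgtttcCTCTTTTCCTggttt
EIF3F: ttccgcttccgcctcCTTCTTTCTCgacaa
Next are 4 members outside the named TOP group with such a start (chr3:150546772-150546801, plus; chr12:53006441-53006470, plus; chrX:24054941-24054970, plus; chr3:186783562-186783591, plus), of which EIF4A2 rose where the other three fell.
EIF2A: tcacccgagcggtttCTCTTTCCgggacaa
EIF4B: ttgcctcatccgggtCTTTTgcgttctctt
EIF2S3: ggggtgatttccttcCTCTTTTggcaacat
EIF4A2: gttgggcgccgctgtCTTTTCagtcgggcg
The last is EEF1B2 (chr2:206159594-206159623, plus), the member with the largest fall, whose annotated start opened with A and did not meet the definition.
EEF1B2: gccggaagtggccccagcctcgaggccggg
EIF2D and EIF2S3B also had such a start. A match describes the annotated start and not the starts used in these cells.

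In the PRL3 libraries 39 of the 58 tested members were lower than in the EV libraries at an adjusted p under 0.05 (67.2%), and 4 were higher (6.90%). Among all 23884 tested genes 22.7% were lower and 20% higher, and among the 14443 tested protein-coding genes 31.6% were lower and 15.2% higher. The median log2 fold change of the tested members was -0.78 (quartiles -1.16 and -0.32), beside 0.11 for all tested genes and -0.15 for protein-coding genes. The highest PRL3 library was below the lowest EV library in 42 members, and the lowest PRL3 library above the highest EV library in 5, where 36.7% and 22.2% of tested protein-coding genes did so (26.6% and 29.7% of all tested genes). Together the members took 2.05% ± 0.103 of all gene counts in the EV libraries and 1.47% ± 0.0434 in the PRL3 libraries (n = 3 each). A lower share in bulk RNA does not tell less RNA per cell from fewer cells with that RNA. The counts depended on how libraries were scaled. With library size alone 23 members were lower and 9 higher (median -0.28). Under that scaling 3078 of the 23884 tested genes were lower and 9514 higher (median 0.60). Scaled to all uniquely aligned reads 46 members were lower and 2 higher (median -1.26), with 8473 of all genes lower and 1952 higher (median -0.36). The median of the members differed from that of all genes by -0.89 to -0.88 under the scalings tried, since a scaling moves all genes alike. Over the other alternatives this difference ranged from -1.01 (without EV B3) to -0.63 (protein-coding genes only), and it was -0.73 without EV B1.

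**Figure D1:**
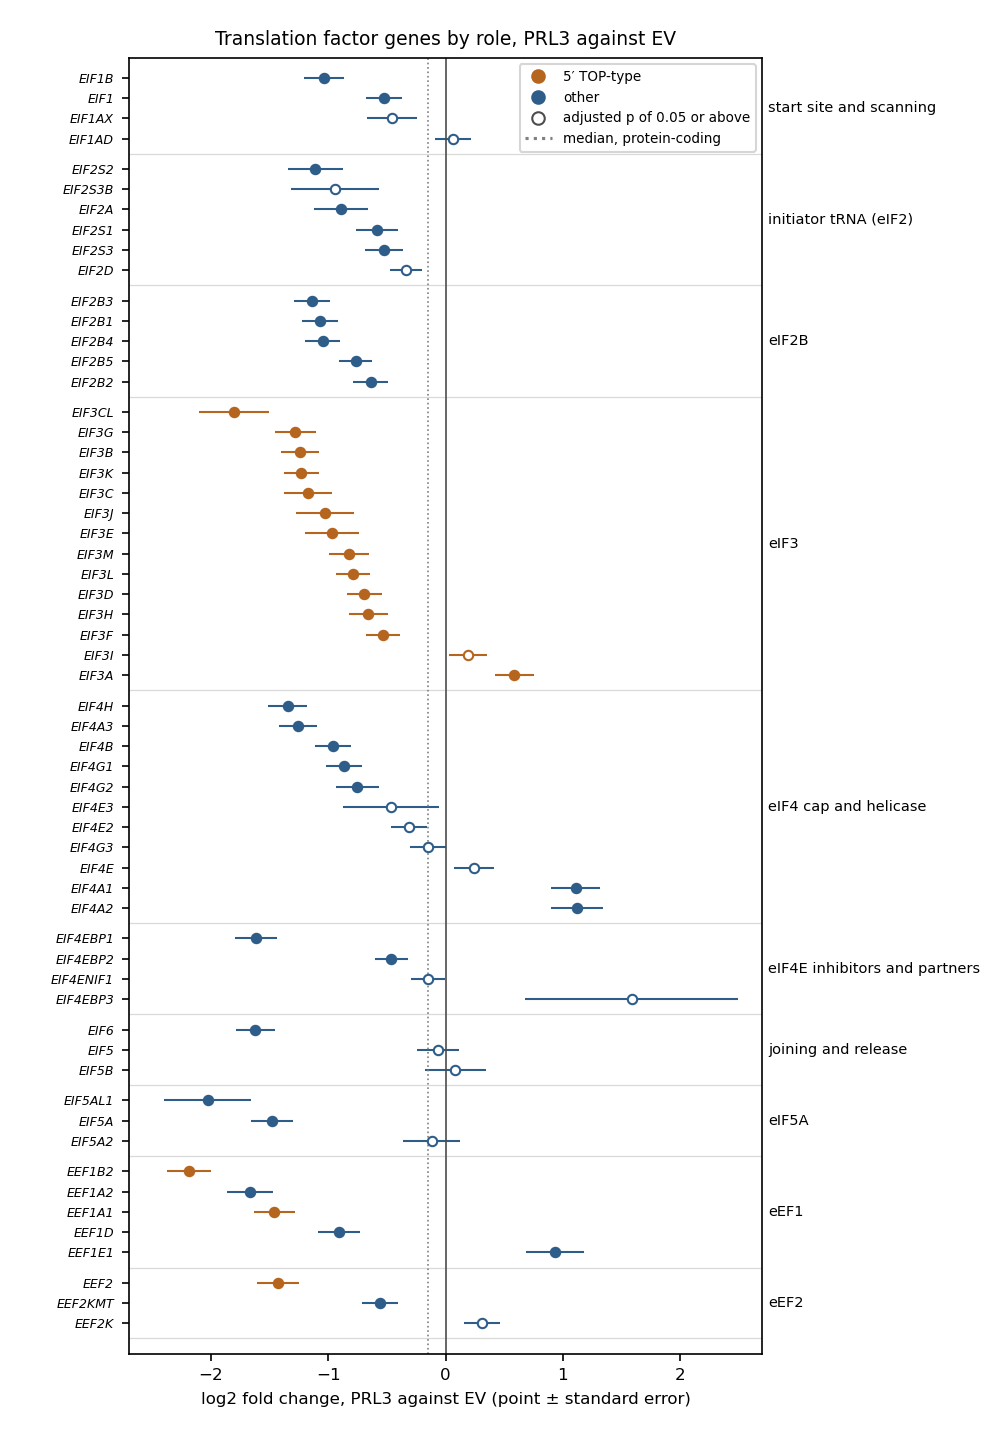
Log2 fold change (x axis, PRL3 against EV) of each tested member, ordered by role, with the standard error as a bar, the 5′ TOP-type members in orange, the others in blue and members at an adjusted p of 0.05 or above as open circles; the dotted line is the median of protein-coding genes (-0.15). Filled points lie mostly left of 0, with 4 of them to the right (EIF3A, EIF4A1, EIF4A2 and EEF1E1).

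The 5′ TOP-type members had a lower median fold change than the rest. Of the 17, 15 were lower and 1 higher, with a median log2 fold change of -1.03 (quartiles -1.28 and -0.69). Of the 41 other tested members 24 were lower, 3 higher and 14 did not pass the test, with a median of -0.58 (quartiles -1.05 and -0.15). The medians differed by -0.44, and this difference lay between -0.45 and -0.44 under all the scalings tried, since a scaling moves both groups alike. It was -0.20 without the EV library B1 and -0.34 without the PRL3 library B9. Within each library the median log2 deviation from the EV mean was also taken for both groups. The TOP-type median minus the other was -0.39, -0.34 and -0.16 in PRL3 B9, B10 and B11. In the EV libraries it was -0.051 to 0.069. No test of the list was made. The TOP-type members took 1.26% ± 0.0842 of gene counts in the EV libraries and 0.750% ± 0.0333 in the PRL3 libraries, while the others took 0.784% ± 0.0194 and 0.716% ± 0.0295, and in both cases EV and PRL3 libraries were fully separate. EEF1A1 alone took 0.686% ± 0.0806 and 0.350% ± 0.0222, and the TOP-type members without it 0.576% ± 0.0211 and 0.399% ± 0.0131. When members were divided by the annotated start instead of by name, the 12 with a pyrimidine-rich start had 9 lower and 1 higher (median -0.86), and the 35 tested members with an entry and no such start had 20 lower and 2 higher (median -0.58). The genes of cytosolic ribosomal proteins, the classical TOP messages, had 78 of 87 lower and 5 higher with a median of -1.55.

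**Figure D2:**
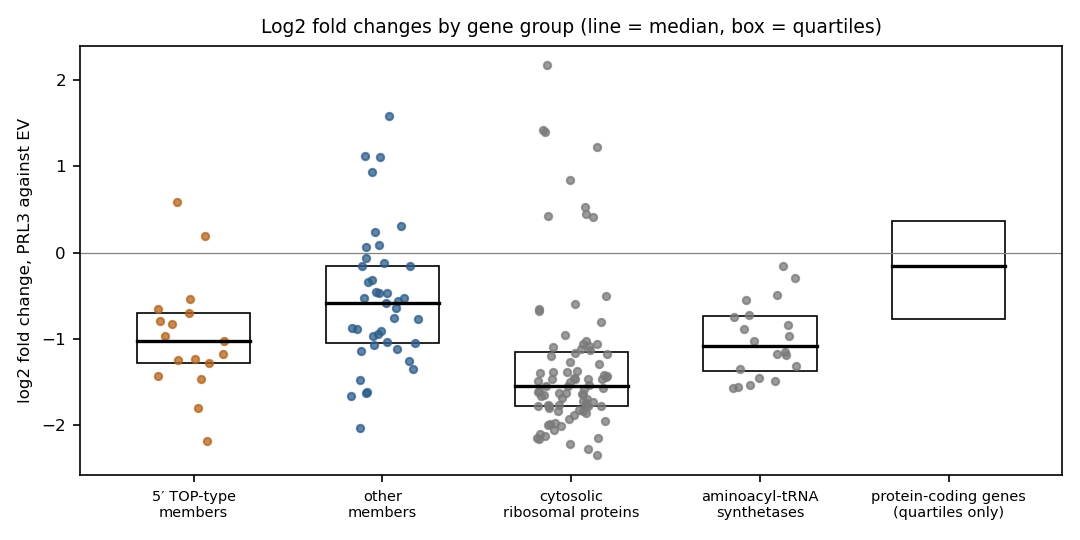
Log2 fold changes (y axis, PRL3 against EV) of the genes of each group, each point a tested gene, with the median as a thick line and the quartiles as a box. The medians are -1.03 for the 5′ TOP-type members, -0.58 for the others, -1.55 for cytosolic ribosomal proteins, -1.08 for aminoacyl-tRNA synthetases and -0.15 for protein-coding genes, shown by quartiles only.

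Among the elongation factors, EEF1B2 had the largest fall of all members. EEF1B2 (ENSG00000114942, chr2:206159585-206162928, plus strand) encodes the beta subunit of the exchange factor that recharges eEF1A with GTP. Its normalised counts were 30263, 26236 and 20560 in EV B1, B2 and B3, and 4686, 6705 and 5542 in PRL3 B9, B10 and B11. All PRL3 libraries were far below all EV libraries, at a log2 fold change of -2.19 (SE 0.19, edgeR adjusted p = 9.5e-06). EEF1A1 (ENSG00000156508, chr6:73489308-73525587, minus strand), the main carrier of aminoacyl-tRNA, had 446634, 361896 and 344534 normalised counts in the EV libraries and 125511, 157929 and 135587 in the PRL3 libraries. The groups were again well separated (log2 fold change -1.46, SE 0.17, adjusted p = 3.3e-05). EEF1A1 alone held 33.5% ± 2.29 of the members' counts in the EV libraries and 23.9% ± 0.934 in the PRL3 libraries. Its ratio to EEF1B2 in counts, which no scaling touches, rose from 15.1 ± 1.51 to 24.9 ± 1.67, with no overlap between the groups. This pair was chosen after the values were seen, and the rise follows from the larger fall of EEF1B2.

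EEF2 (ENSG00000167658, chr19:3976056-3985463, minus strand), the translocation factor, read 114181, 142106 and 113981 in the EV libraries against 39129, 55347 and 43002 in the PRL3 libraries. The PRL3 libraries were far below all EV libraries, and the log2 fold change was -1.43 (SE 0.18, adjusted p = 4.6e-05). EEF2K, the kinase that inhibits eEF2 by phosphorylation, had 2416, 2663 and 2331 normalised counts and then 3536, 2947 and 2704. The PRL3 libraries lay just above the EV libraries, but the log2 fold change of 0.31 (SE 0.15) did not pass the test (adjusted p = 0.12). Its call depended on the scaling: it was higher with upper-quartile factors (0.49, adjusted p = 0.022), library size alone (0.81, adjusted p = 0.0011) and protein-coding genes only (0.49, adjusted p = 0.015), and the change was -0.17 and did not pass when scaled to all uniquely aligned reads. The count ratio of EEF2 to EEF2K was 49.8 ± 3.17 in the EV libraries and 15.3 ± 3.90 in the PRL3 libraries. EEF2KMT, a methyltransferase that acts on eEF2, had a log2 fold change of -0.56 (adjusted p = 0.010). This did not pass with upper-quartile factors (-0.38), with library size alone (-0.07) or without PRL3 B9 or B11.

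EEF1A2, the eEF1A form typical of muscle and neurons, had a far lower level than EEF1A1 in the EV libraries (13.8 ± 2.84 against 811 ± 115 RPKM, here reads per kilobase of merged exons scaled by the effective library size), and it fell too. It had 2773, 3889 and 2764 normalised counts in the EV libraries and 862, 1223 and 887 in the PRL3 libraries. These groups did not overlap (log2 fold change -1.66, SE 0.20, adjusted p = 3.0e-05), and the count ratio of EEF1A1 to EEF1A2 did (93.1 to 161 in the EV libraries, 129 to 153 in the PRL3 libraries). EEF1D, the delta subunit of the exchange complex, fell by 0.91 on the log2 scale. EEF1E1, which encodes an auxiliary protein of the multisynthetase complex and not an elongation factor in the strict sense, moved the other way. Its normalised counts were 354, 200 and 366 in the EV libraries and 639, 525 and 600 in the PRL3 libraries. Every PRL3 library was above every EV library (log2 fold change 0.94, SE 0.25, adjusted p = 0.0080), although the change of 0.46 did not pass when scaled to all uniquely aligned reads (adjusted p = 0.14). EEF1E1 shares 37.5% of the exon length of its canonical transcript with the read-through gene EEF1E1-BLOC1S5, which was listed at 0 in every library. EEF1G, the gamma subunit, was also listed at 0 throughout: in GENCODE 44, 99.5% of its canonical exon length lies within exons of an unnamed protein-coding gene on the same strand, and reads shared by both genes are not counted for either.

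**Figure D3:**
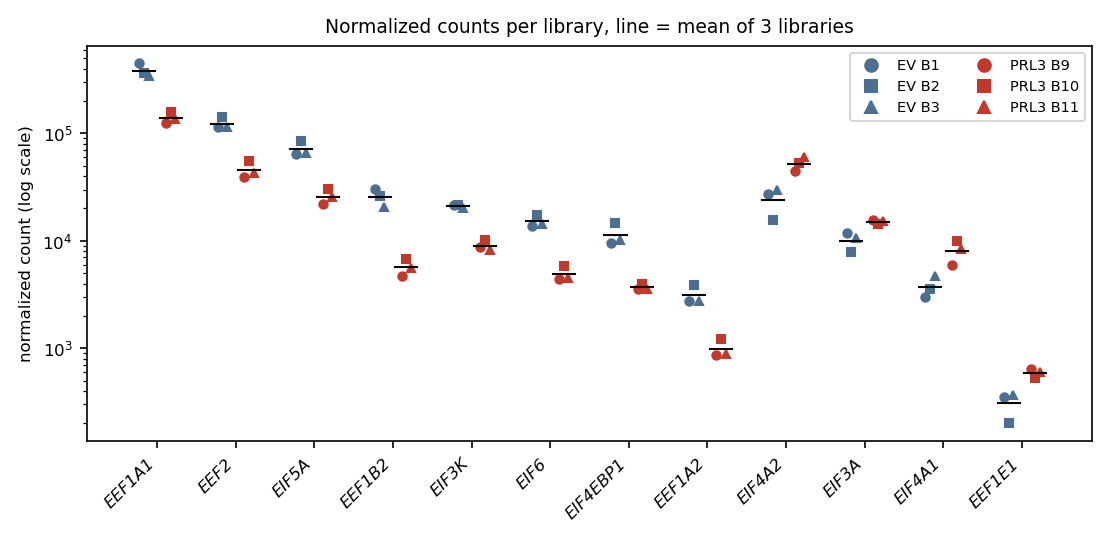
Normalised counts (y axis, log scale) of 12 members in each library, EV in blue and PRL3 in red, with a marker shape for each library and a line at the mean of the 3 libraries of a group. From EEF1A1 to EEF1A2 the red points lie below the blue ones, and from EIF4A2 to EEF1E1 above them.

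The eIF3 complex is the largest initiation factor and holds the small subunit in place for scanning. Of its 14 genes, 12 were lower (85.7%), 1 was higher (EIF3A, 7.14%) and 1 did not pass the test (EIF3I), with a median log2 fold change of -0.90. Of tested protein-coding genes 31.6% were lower and 15.2% higher. Among the eIF3 genes EIF3K had the smallest p. It read 21660, 21511 and 20371 in the EV libraries and 8772, 10093 and 8238 in the PRL3 libraries. The spread within each group was small beside the gap (log2 fold change -1.23, SE 0.15, adjusted p = 3.4e-05). EIF3B, a core scaffold subunit, read 31131, 34376 and 27062 against 11989, 14807 and 12419 (log2 fold change -1.24, SE 0.16, adjusted p = 5.5e-05). EIF3G, which binds RNA, read 14803, 20402 and 15824 against 6209, 8440 and 6377 (-1.28, SE 0.18, adjusted p = 9.8e-05). In both of these genes the groups were separate.

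EIF3C, another core subunit, has a near-identical copy, EIF3CL, and since counting could split their reads or leave them out, both are uncertain. EIF3C had means of 1787 ± 495 and 794 ± 35.5 normalised counts in the EV and PRL3 libraries (log2 fold change -1.17, SE 0.20, adjusted p = 0.00052), and EIF3CL 1213 ± 559 and 347 ± 15.6 (-1.80, SE 0.30, adjusted p = 0.00034). Without this pair 10 of 12 eIF3 genes were lower (median -0.81), beside 31.6% of tested protein-coding genes. The smaller falls belonged to EIF3L (10705 ± 993 to 6201 ± 350; -0.79, SE 0.14, adjusted p = 0.00076), EIF3D, which contacts the mRNA cap (12820 ± 1598 to 7927 ± 371; -0.69, SE 0.15, adjusted p = 0.0023), and EIF3F (10152 ± 945 to 7024 ± 340; -0.53, SE 0.14, adjusted p = 0.0092, and 0.050 without PRL3 B9). The call of EIF3F was also lost with upper-quartile factors (adjusted p = 0.059) and with library size alone (0.83). Between exons of EIF3L and an unnamed gene on the same strand 58.5% of the canonical exon length is shared.

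In EIF3J and EIF3E EV B1 stood well above the other EV libraries, and in EIF3H and EIF3M by less. EIF3J, a loosely bound subunit, had 8780, 4333 and 4079 normalised counts in the EV libraries and 2494, 2805 and 3133 in the PRL3 libraries, and EV B1 was 2.03 times the next EV library. The groups did not overlap even so (log2 fold change -1.03, SE 0.25, adjusted p = 0.0050). EIF3E read 17598, 9046 and 9014 against 5881, 5707 and 6654 (-0.97, SE 0.23, adjusted p = 0.0044). EIF3H read 15996, 11852 and 11330 against 7623, 8222 and 9011 (-0.66, SE 0.17, adjusted p = 0.0063), and EIF3M 16002, 11632 and 10836 against 6645, 7141 and 7957 (-0.82, SE 0.17, adjusted p = 0.0019). Over all tested members EV B1 was the highest EV library in 33 of 58, and more than 1.5 times the next in 6, which were EIF5B, EIF3J, EIF3E, EIF2S2, EIF2A and EIF1AX. The same was not counted over all tested genes, so it is not shown to be particular to members. The median of the eIF3 genes was -0.64 without EV B1 and their 12 lower and 1 higher calls did not change in number. With library size alone 5 were lower and 2 higher (median -0.39), beside 3078 lower and 9514 higher of all 23884 tested genes.

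EIF3A (chr10:119033670-119080817, minus strand), the largest subunit and the scaffold on which eIF3 assembles, was the exception. It read 11811, 7787 and 10563 in the EV libraries and 15539, 14423 and 15318 in the PRL3 libraries. Each PRL3 library exceeded each EV library (log2 fold change 0.59, SE 0.17, adjusted p = 0.013), but the change was 0.11 and did not pass when scaled to all uniquely aligned reads. EIF3I, with 13852, 14266 and 15162 against 19415, 16565 and 13440, overlapped between groups (0.19, SE 0.16, adjusted p = 0.37), and was higher with library size alone (0.69, adjusted p = 0.0036). Ratios within a library, chosen after the values were seen, show the unequal change without any scaling. The count ratio of EIF3A to EIF3B was 0.332 ± 0.0916 in the EV libraries and 1.17 ± 0.171 in the PRL3 libraries, and that of EIF3I to EIF3B was 0.415 to 0.560 and 1.08 to 1.62.

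**Figure D4:**
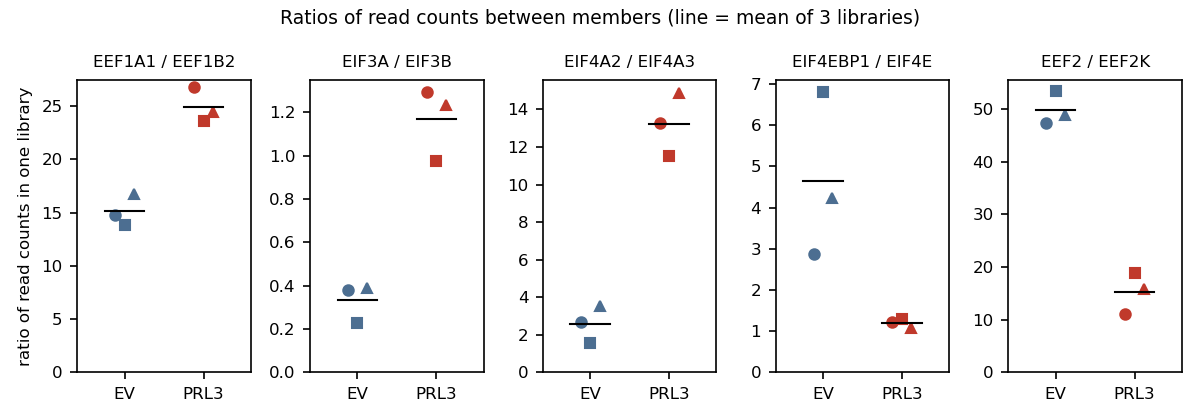
Ratio of the read counts of 2 members within each library (y axis, starting at 0), EV in blue and PRL3 in red, with the marker shape of each library as in the plot of normalised counts and a line at the mean of 3 libraries. In each panel the EV and PRL3 libraries do not overlap: EEF1A1/EEF1B2, EIF3A/EIF3B and EIF4A2/EIF4A3 are higher with PRL3, EIF4EBP1/EIF4E and EEF2/EEF2K lower. The pairs drawn were chosen after the values were seen, and EEF1A1/EEF1A2, which overlapped between the groups, is not drawn.

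The eIF4 genes, which act at the cap and unwind the leader, went in both directions. Of 11 tested, 5 were lower (45.5%), 2 higher (18.2%, near the 15.2% of protein-coding genes) and 4 did not pass, with a median of -0.47 (0.04 with library size alone). EIF4E, the cap-binding protein, read 3282, 2143 and 2385 in the EV libraries and 2924, 3032 and 3288 in the PRL3 libraries. The groups overlapped (log2 fold change 0.24, SE 0.17, adjusted p = 0.28), and the call depended on the setting: EIF4E was higher without EV B1 (0.45, adjusted p = 0.024), with upper-quartile factors (0.43, adjusted p = 0.044), with library size alone (0.74, adjusted p = 0.0029) and with protein-coding genes only (0.43, adjusted p = 0.044). EIF4G1, the scaffold between cap and ribosome, read 25629, 30999 and 24369 against 14049, 15791 and 14526. All PRL3 libraries were lower (-0.87, SE 0.15, adjusted p = 0.00057). The scaffolds EIF4G2 and EIF4G3 had log2 fold changes of -0.75 (adjusted p = 0.0050) and -0.15 (adjusted p = 0.46), and the count ratio of EIF4G1 to EIF4G3 was 4.66 ± 0.951 and 2.83 ± 0.464. The helicase cofactors fell, EIF4H by 1.35 and EIF4B by 0.96 on the log2 scale. The weaker cap-binding relatives EIF4E2 (-0.31, adjusted p = 0.13, and 0.049 without EV B3) and EIF4E3 (-0.47, adjusted p = 0.39) did not pass, and EIF4E1B, with at most 4.46 normalised counts, was not tested.

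The helicase paralogues did not move together. EIF4A2 (chr3:186783205-186789897, plus strand) read 27177, 15548 and 29517 in the EV libraries and 44585, 52627 and 59600 in the PRL3 libraries. Every PRL3 library was above every EV library (log2 fold change 1.12, SE 0.22, adjusted p = 0.0013). EIF4A1 (chr17:7572824-7579006, plus strand) read 3003, 3585 and 4662 against 5904, 10036 and 8336, again without overlap (1.11, SE 0.21, adjusted p = 0.00093). All of the canonical exon length of EIF4A1 is shared on the same strand with SENP3-EIF4A1, a read-through gene, and an unnamed long noncoding RNA in GENCODE 44, and reads in shared exons are not counted for any of them. EIF4A3, which is a component of the exon junction complex rather than of cap binding, fell from 9483 ± 1000 to 3976 ± 603 (-1.25, SE 0.16, adjusted p = 5.5e-05). The count ratio of EIF4A2 to EIF4A3 was 2.60 ± 1.00 in the EV libraries and 13.2 ± 1.69 in the PRL3 libraries. Both rises and the fall of EIF4A3 kept their direction and passed under each of the alternatives tried. For EIF4A1 this covers only the reads left to it, since none of these alternatives restored reads in its shared exons.

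The eIF4E inhibitors, which hold eIF4E away from eIF4G until mTORC1 phosphorylates them, differed among themselves. EIF4EBP1 (chr8:38030534-38060365, plus strand) read 9446, 14588 and 10077 in the EV libraries and 3592, 3962 and 3562 in the PRL3 libraries. The PRL3 libraries were close to each other and all below the EV libraries (log2 fold change -1.62, SE 0.18, adjusted p = 2.2e-05). EIF4EBP2 fell by 0.46 on the log2 scale (adjusted p = 0.020), a call that was lost without any 1 of the PRL3 libraries (adjusted p = 0.063 to 0.089). Its call was also lost with upper-quartile factors, library size alone and protein-coding genes only (adjusted p = 0.13, 0.85 and 0.12). EIF4EBP3 had at most 69.0 normalised counts in a library and a log2 fold change of 1.59 (SE 0.90, adjusted p = 0.18), with 73.2% of its canonical exon length shared with ANKHD1-EIF4EBP3. EIF4ENIF1, which carries eIF4E into the nucleus, had a log2 fold change of -0.15 (adjusted p = 0.44). The count ratio of EIF4EBP1 to EIF4E was 2.88 to 6.81 in the EV libraries and 1.08 to 1.31 in the PRL3 libraries.

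The genes of eIF2 and eIF2B, the pair that stress kinases act on, were mostly lower. Of the 6 eIF2 genes, alternative tRNA carriers included, 4 were lower (66.7%), and of the 5 eIF2B genes 100%. Of tested protein-coding genes 31.6% were lower. EIF2S1, the alpha subunit that those kinases phosphorylate, read 6725, 4868 and 4316 in the EV libraries and 3087, 3567 and 3968 in the PRL3 libraries. The groups were separate by a narrow gap (log2 fold change -0.58, SE 0.18, adjusted p = 0.020), and the call was lost without EV B1 (adjusted p = 0.071), without PRL3 B9 (0.10) or without PRL3 B10 (adjusted p = 0.056). It was also lost with upper-quartile factors, library size alone and protein-coding genes only (adjusted p = 0.070, 0.69 and 0.064). EIF2S2, the beta subunit, fell by 1.11 and EIF2S3, the gamma subunit, by 0.53 on the log2 scale. EIF2S3 lost its call without EV B1, PRL3 B10 or PRL3 B11 (adjusted p = 0.062, 0.080 and 0.076). The same held with upper-quartile factors, library size alone and protein-coding genes only (adjusted p = 0.090, 0.91 and 0.080). EIF2S3B, a single-exon copy of EIF2S3, had a log2 fold change of -0.94 that did not pass (adjusted p = 0.056, and 0.0059 without EV B3). Of the alternative tRNA carriers EIF2A fell by 0.89, and EIF2D had a log2 fold change of -0.34 (adjusted p = 0.062). EIF2D passed as lower with RLE factors (adjusted p = 0.043), DESeq2 (adjusted p = 0.023), limma-voom (adjusted p = 0.046) and all uniquely aligned reads (adjusted p = 0.00073). All 5 eIF2B subunit genes were lower: EIF2B3 by 1.14, EIF2B1 by 1.07, EIF2B4 by 1.05, EIF2B5 by 0.77 and EIF2B2 by 0.64 on the log2 scale, at adjusted p of 7.5e-05 to 0.0032. With library size alone, 3 of the eIF2B genes and 1 of the 6 eIF2 genes passed as lower. Under that scaling 3078 of all 23884 tested genes were lower and 9514 higher.

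The remaining roles held strong falls beside genes that did not pass. EIF6, which keeps the large ribosomal subunit from joining too early, read 13828, 17381 and 14402 in the EV libraries and 4422, 5835 and 4552 in the PRL3 libraries. The groups were far apart (log2 fold change -1.62, SE 0.17, adjusted p = 1.5e-05). The GTPase activator EIF5 and the joining factor EIF5B did not pass, with log2 fold changes of -0.06 and 0.09. EIF5B read 4306, 1894 and 2081 in the EV libraries, and without the high EV B1 it was higher in PRL3 at 0.56 (adjusted p = 0.013). EIF5A, the only protein with hypusine besides its paralogue and a helper at stalled peptide bonds, read 64283, 84837 and 66215 against 21784, 30020 and 25401 (-1.48, SE 0.18, adjusted p = 3.4e-05). EIF5AL1, a single-exon copy of EIF5A, fell by 2.03 and EIF5A2 had a log2 fold change of -0.12 (adjusted p = 0.73). The count ratio of EIF5A to EIF5A2 was 270 ± 75.9 and 102 ± 16.1. Of the start site factors EIF1 fell by 0.52 (adjusted p = 0.015, and 0.084 without PRL3 B9) and its paralogue EIF1B by 1.04, whereas EIF1AX (-0.46, adjusted p = 0.10) and EIF1AD (0.06, adjusted p = 0.76) did not pass. The call of EIF1 was also lost with upper-quartile factors, library size alone and protein-coding genes only (adjusted p = 0.065, 0.83 and 0.063). EIF1AY was not tested.

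The level of a gene in the EV libraries went with its fold change. On the RPKM scale used above for EEF1A2, levels of different genes can be compared. EEF1A1 had the highest level (811 ± 115), followed by EEF2 (652 ± 85.4), EIF5A (568 ± 89.8), EEF1B2 (285 ± 54.0) and EIF4EBP1 (274 ± 67.7). Neighbours in this order were within their summed SD except EIF5A and EEF1B2. The log2 fold changes of these 5 were -2.19 to -1.43. Across the 58 tested members the correlation of log2 fold change with the log2 level was -0.42 (Pearson) and -0.43 (Spearman), which is a description over genes that share the same libraries and, in the level, the same EV counts as the fold change. EIF4A2 was an exception, being abundant (83.4 ± 25.9) and higher in the PRL3 libraries (181 ± 26.0). With log2 gene length the correlation was 0.08 (Pearson) and 0.22 (Spearman), with log2 merged exon length 0.10 and 0.32, and with the number of exons of the canonical transcript 0.08 and 0.07. Over the 55 tested members with at most 50% of their canonical exons shared it was 0.30 and 0.34 for gene length and 0.32 and 0.41 for exon length, beside 0.28 and 0.30 for gene length over all 14443 tested protein-coding genes. The TOP-type members had a higher median level (43.1 against 15.4) and more exons (11 against 8) than the other tested members, so level and group cannot be told apart here. Merged exons cover every annotated isoform, which lowers the level per kb of genes with long or many isoforms.

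Many of these genes have processed pseudogenes, copies of the spliced message elsewhere in the genome that are themselves listed in the files. Of the pseudogenes named after members 60 were tested, 33 were lower and 6 higher, with a median log2 fold change of -1.97, while of all 2861 tested pseudogenes 24.2% were lower and 21.9% higher with a median of 0.22. The 49 pseudogenes of EEF1A1 summed to 23807, 26816 and 10594 normalised counts in the EV libraries and 3627, 4345 and 4090 in the PRL3 libraries. Those of EEF1B2 summed to 1278 ± 588 and 176 ± 43.8, and those of EIF5A to 739 ± 417 and 196 ± 29.1. In each of these the sum and the gene were both lower with PRL3. The sum of the 13 pseudogenes of EIF4A1 and the count of their gene moved in opposite directions. All of the canonical exon length of EIF4A1 is shared, however, and reads in shared exons are not counted for it. The pseudogene sum was 3506, 4093 and 1868 in the EV libraries and 593, 688 and 718 in the PRL3 libraries. Of the 6 tested pseudogenes 5 were lower (median -2.69), and in the EV libraries the sum was 84.1% of the count left for EIF4A1. Reads of near-identical copies may be credited to a pseudogene or to its gene, and how many were was not tested. Reads with more than 1 alignment were left out of the gene counts. Their tally was 17140710 to 32460113 in the EV libraries, beside 72281955 to 106383606 uniquely aligned reads. In the PRL3 libraries it was 12409441 to 22891383, beside 120026737 to 163061738. The part of this loss in the values of genes with copies was not tested. Leaving out members with 3 or more named pseudogenes left 43 tested, of which 27 were lower and 2 higher, with a median of -0.69.

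**Figure D5:**
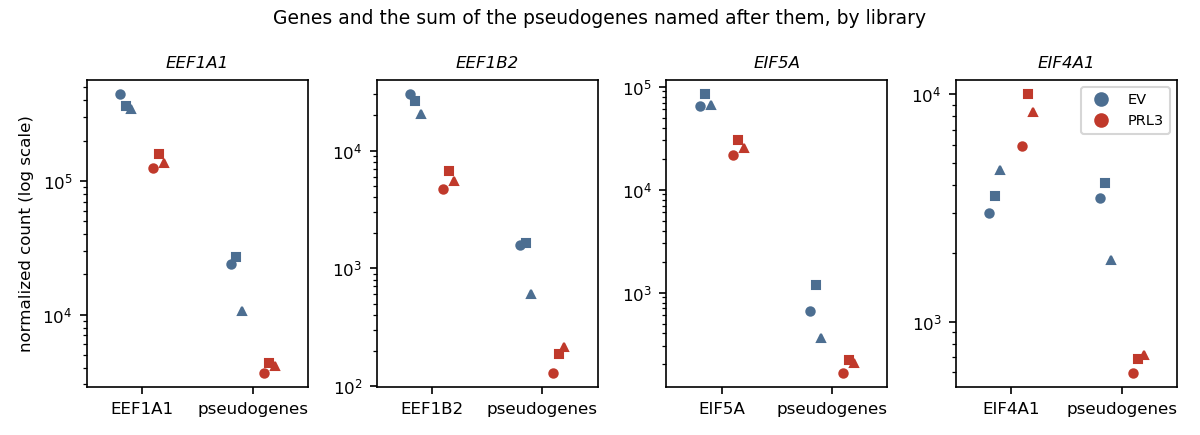
Normalised counts (y axes, log scale, a scale for each panel) of 4 members and of the sum of the pseudogenes named after each, in every library, EV in blue and PRL3 in red with a marker shape for each library. Gene and pseudogene sum are both lower with PRL3 for EEF1A1, EEF1B2 and EIF5A, whereas for EIF4A1 the gene is higher and the sum lower. The count of EIF4A1 leaves out reads in its shared exons, which cover all of its canonical exon length.

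Genes that work with these factors were counted from lists of names. Their shares in the main comparison stand beside 31.6% lower and 15.2% higher among tested protein-coding genes. Of 20 cytosolic aminoacyl-tRNA synthetases, which charge the tRNA that eEF1A delivers, 18 were lower (90%) and 0 higher (median -1.08), with the largest falls in FARSA (-1.57) and QARS1 (-1.56). Of the ribosomal protein genes (89.7% lower) RPL13A (-2.35) and RPS2 (-2.28) had the largest changes. RPS10 (1.42) was among the 5 that rose, but its EV mean was 640 normalised counts, where RPL13A had 160043. Shared exons were examined for members alone, so their part in the low count of RPS10 was not tested. With library size alone 14 synthetase genes and 73 ribosomal protein genes were lower, and the medians were -0.59 and -1.05. Under that scaling 3078 of all 23884 tested genes were lower and 9514 higher.

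The smaller lists depended more on the scaling. Their counts with library size alone stand beside 3078 lower and 9514 higher of all 23884 tested genes. All 3 termination factors were lower, GSPT1 by 1.01, ETF1 by 0.65 and GSPT2 by 0.50 on the log2 scale, but only 1 of the 3 passed with library size alone. Of 12 initiation helpers and poly(A)-binding proteins 6 were lower (50%) and 0 higher (median -0.53), with MCTS1 at -1.15 and PABPC1 at -1.04. With library size alone 2 of them were lower and 4 higher (median -0.03). Of 12 genes of the mTORC1 axis 7 were lower (58.3%) and 0 higher (median -0.52), with MKNK2, an eIF4E kinase, at -1.46 and MLST8, an mTOR partner, at -1.45. With library size alone 5 were lower and 4 higher (median -0.04).

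Among the 4 eIF2 kinases EIF2AK1 fell by 0.97 (25% lower, near the background), the other three did not pass, and with library size alone 2 were higher. Of 6 stress response genes 3 were lower (50%) and 1 higher (16.7%, near the background), with TRIB3 at -0.88 and PPP1R15B, which directs a phosphatase to eIF2, at 0.87. Their median was -0.38, and with library size alone 0 were lower and 2 higher (median 0.11). Of the pair of multisynthetase scaffold genes AIMP2 fell by 0.73, a call lost with library size alone. Of 6 mitochondrial translation factors 3 fell (50%), led by TUFM (-1.74) and TSFM (-0.85), and 1 was lower and 1 higher with library size alone.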

How the data were processed

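Nascent RNA was sequenced in 6 libraries, 3 per group. The authors aligned the paired reads to GRCh38 with STAR 2.5.1b and deposited read counts per gene from HTSeq 0.6.1 with the reverse-strand setting and Ensembl release 91. FastQC 0.11.3 is also named in the submitters' notes. The counts are raw, are taken over exons, and leave out reads shared by several genes. Symbols and gene models came from GENCODE 44, which matched 57532 of 58243 identifiers. Lines that name no gene stayed out of library sizes.

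The PRL3 and EV groups were tested against each other with edgeR 4.0.16 in R 4.3.3 (TMM scaling, filterByExpr, quasi-likelihood test, Benjamini-Hochberg over 23884 genes, threshold 0.05). Normalised counts are scaled to the mean effective library size, and standard errors come from the F statistic. The procedure was tested on simulated data. Alternatives used other scalings, filters, DESeq2 1.42.0, limma-voom 3.58.1 and each library left out. Total counts of 36532207 to 57952035 per library limit the precision of weak genes. No pair of libraries agreed within sampling noise. Figures were drawn with matplotlib 3.10.9.

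Every member is named, and per-library or mean values are given for the TOP-type members, EIF2S1, EIF4E, EIF4A1, EIF4G1, EIF4EBP1, EEF2K and the 6 lower and up to 6 higher members with the smallest p whose groups did not overlap. In other lists the 2 largest changes past the threshold are named. EEF1D, EIF5A, EIF4A3, EIF5B, GSPT2 and RPS10 received values beyond this rule. The members and lists were chosen with earlier results of these data known.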

Additional observations from a re-analysis of the deposited data

Results flagged for a closer look

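Inside members, 2 long noncoding RNA genes on the same strand were tested, which enter the comparisons above only through the counts and medians over all tested genes, and both were above the level of the EV libraries. Among all tested genes 20% were higher and 22.7% lower, and among protein-coding ones 15.2% and 31.6%. Rises were therefore more frequent among genes that are not protein-coding than among those that are. The unnamed gene inside EIF4B had 156, 91.4 and 159 normalised counts in the EV libraries and 719, 496 and 568 in the PRL3 libraries (log2 fold change 2.13, SE 0.27, edgeR adjusted p = 4.7e-05), where EIF4B itself had -0.96. The unnamed gene inside EIF3J had 51.2, 46.9 and 137 and then 229, 205 and 242 (log2 fold change 1.51, SE 0.40, adjusted p = 0.0078), where EIF3J had -1.03. Neither shares exons with its host gene. The share of reads outside exons annotated on their strand, which was higher in the PRL3 libraries, moved the same way, and its part in these values was not tested.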

How the results depend on the processing

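Of the 43 members past the threshold, 25 kept their direction and passed under every alternative run, among them EEF1A1, EEF1B2, EEF2, EIF3B, EIF3K, EIF4A1, EIF4A2, EIF4EBP1 and EIF6. The count of EIF4A1 leaves out reads in its shared exons under each of them. Scaling moved the counts most. Scaled by library size alone, 3078 of all genes were lower and 9514 higher, 23 members lower and 9 higher (median -0.28), TOP-type members 8 lower and 2 higher (median -0.53) and other members 15 lower and 7 higher (median -0.085). Scaled to all uniquely aligned reads, 8473 genes were lower and 1952 higher (median -0.36), 2 members were higher (median -1.26), 0 TOP-type members were higher (median -1.52) and the median of the others was -1.07. With upper-quartile factors the medians were -0.60, -0.83 and -0.40, and with protein-coding genes only -0.59, -0.84 and -0.40 (members, TOP-type, others), with 5 of the others higher in both. At an adjusted p under 0.01, 2719 genes and 0 TOP-type members were higher. Leaving out 1 library gave medians of -0.87 to -0.60 for members, -1.22 to -0.72 for TOP-type and -0.72 to -0.52 for others, differences of -0.52 to -0.20, and 3 to 5 higher among the others. With another list of TOP names 9 of 10 tested TOP-type members were lower (median -0.96), with the start sequence 9 of 12 (median -0.86), and without members with 3 or more pseudogenes 2 of 43 were higher. Without members sharing over 50% of their canonical exons, an alternative added after seeing the data, 38 of 55 were lower and 3 higher.

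Direction changed with library size alone for EIF4G3 (0.35), EIF5 (0.43), EIF4E2 (0.19), EIF2D (0.16), EIF4EBP2 (0.037), EIF4E3 (0.041), EIF5A2 (0.38), EIF1AX (0.038), EIF4ENIF1 (0.34), the stress response median (0.11) and that of mitochondrial translation factors (0.093). Scaled to all uniquely aligned reads it changed for EIF3I (-0.29), EEF2K (-0.17), EIF4E (-0.24), EIF5B (-0.41) and EIF1AD (-0.42). With upper-quartile factors and with protein-coding genes only it changed for EIF4G3 (0.038 and 0.035), EIF5 (0.12 in both), EIF5A2 (0.067 and 0.065) and EIF4ENIF1 (0.029 and 0.031). With 1 library left out, EIF5 ranged from -0.15 (without EV B3) to 0.12 (without EV B1), EIF5A2 from -0.23 to 0.066 (the same libraries), EIF5B from -0.11 (without EV B2) to 0.56 (without EV B1) and EIF1AD from -0.011 (without EV B3) to 0.19 (without EV B2). Of these only EIF4EBP2 was past the threshold in the main comparison, and the cause was not tested. Of the members that did not pass, EEF2K, EIF3I, EIF4E, EIF1AD and EIF5 were higher with library size alone, and EIF5, EIF4G3, EIF4ENIF1, EIF4E2, EIF2D, EIF1AX and EIF2S3B were lower when scaled to all uniquely aligned reads. No paired analysis was possible because no library number occurs in both groups. Depth limits EIF4EBP3, EIF4E3 and EIF2S3B most, which had at most 193 normalised counts in a library.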
